A study of Mus musculus with 9 samples.

Results

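Glial cell line-derived neurotrophic factor (GDNF), its relative neurturin and the receptors through which they act were examined in the striatum of mouse embryos. Members were the rows of the count files whose Ensembl identifier corresponds in GENCODE M21 to Gfra1, Gfra2, Gfra3, Gfra4, Ret, Ncam1, Gdnf or Nrtn, that is 8 of 44886 genes. Gfra1 entered because it was higher in both kinds of mutant, so its values against Control are given as a description, without a test. The other 7 members were not chosen on a value of their own, although the set as a whole was drawn up with earlier results of these embryos known.

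GDNF family ligands bind a co-receptor of the GFRα family, which is anchored in the outer leaflet of the membrane and cannot signal alone. The bound pair then engages the receptor tyrosine kinase Ret, or, in cells without Ret, the adhesion molecule NCAM. GDNF is best known as a survival factor for midbrain dopamine neurons, whose axons innervate the striatum. Each GFRα has a preferred ligand: GDNF for GFRα1 (Gfra1), neurturin for GFRα2 (Gfra2), artemin for GFRα3 (Gfra3) and persephin for GFRα4 (Gfra4).

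RNA was sequenced from the striatum of 9 E17.5 embryos labelled as C57BL/6, 3 per genotype. In Islet1Cre;Ebf1fl/- embryos a single floxed allele of the transcription factor Ebf1 faces a null allele, and Cre is driven from Islet1, which the study describes as active in direct-pathway striatal projection neurons (dSPN) and cholinergic interneurons. In Dlx5/6::Cre;Ebf1fl/- embryos the same Ebf1 alleles are combined with a Cre that recombines in all striatal projection neurons (SPN) and in interneurons. Embryos labelled Control were, in the methods of the study, heterozygous, and neither their exact alleles nor their Cre status is given by the labels. The Islet1Cre line was kept on a B6D2F1/J background, unlike the other lines used for these embryos. Both comparisons with Control use the same 3 control embryos and are therefore not independent of each other.

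Counts on genes totalled 16.5 M to 41.5 M per library, the smallest in Islet1Cre 3, and replicate embryos always differed by more than sampling noise (the smallest chi-square over its degrees of freedom was 10.1). Ebf1 counts were not lower in the mutants (normalized count 11774 to 15343, against 7945 to 14208 in Control), so genotypes are given as labelled. The study identified genotypes by PCR and reports that Ebf1 protein was absent from the striatum of both mutants at E17.5. Counts over the whole gene cannot show a loss of protein. Control 3 and Islet1Cre 3 held both Xist, which is transcribed from the inactive X of females, and Y-linked counts (normalized sums of 295 and 2450 for Y-linked genes). Control 2 held Y-linked counts with almost no Xist and the other 6 libraries, all 3 Dlx5/6::Cre embryos among them, Xist with almost no Y-linked counts, so sex was not balanced between the genotypes. All 12 SPN markers listed for this work were counted in every library, and of the 8 markers of GABAergic interneurons Pvalb and Pthlh stayed under a normalized count of 10 throughout. Dlx5/6::Cre 1 stood apart, with a summed normalized count of cortical excitatory neuron markers of 6362 against 1019 to 3137 in the other 8 libraries and the highest sum of radial glia and astrocyte markers, 29304 against 14992 to 22803. The other Dlx5/6::Cre embryos were shifted too: the cortical sum was 2690 to 6362 in that genotype and 1081 to 2565 in Control, with all 8 cortical markers positive (median log2 fold change 1.06). Microglial markers summed to 2687 to 2955 in Dlx5/6::Cre and 2389 to 2596 in Control. Of these 7 markers, however, 4 were positive and 3 negative (median log2 fold change 0.004). Embryo codes in the labels begin with IE in Control 1, Control 2 and the Islet1Cre embryos and with D in Control 3 and the Dlx5/6::Cre embryos, so the code goes largely with genotype. Between the mutant genotypes it goes wholly with genotype.

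The co-receptor of GDNF, chosen as higher in both mutants, was the member that differed most from Control in both. Gfra1 (ENSMUSG00000025089, protein-coding, chr19:58235604-58455909 of GRCm38, minus strand) had a normalized count, that is reads divided by a size factor for each library, of 337, 500 and 544 in Control 1 to 3. The count was 2137, 2784 and 1559 in Islet1Cre 1 to 3, and 1725, 2657 and 2866 in Dlx5/6::Cre 1 to 3. Every mutant embryo lay above every control, the lowest mutant, Islet1Cre 3, at 1559 and the highest control, Control 3, at 544. Such separation, mutants above controls, was seen in 7.83% of the 16368 genes tested for Islet1Cre and in 9.63% for Dlx5/6::Cre, and nothing is read from it here because Gfra1 was chosen on this contrast.

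On the log2 scale Gfra1 stood 2.23 above Control in Islet1Cre;Ebf1fl/- embryos (SE 0.25, 95% interval 1.67 to 2.79, n = 3 against 3), a ratio of 4.70. In Dlx5/6::Cre;Ebf1fl/- embryos the log2 difference was 2.39 (SE 0.25, 95% interval 1.83 to 2.95), a ratio of 5.25. Ordered by log2 fold change, Gfra1 came 22nd from the top of 16368 genes in each comparison, and 4th and 5th among the 12051 genes with a mean normalized count of at least 100. Leaving out each of the 9 embryos in turn gave 2.01 to 2.42 for Islet1Cre and 2.21 to 2.58 for Dlx5/6::Cre. Without both libraries that held Xist and Y-linked counts the differences were 2.56 and 2.53, and without Control 2, the library with Y-linked counts alone, 2.30 and 2.46. Within the embryos of code IE the Islet1Cre difference was 2.38 (3 against 2), and within those of code D the Dlx5/6::Cre difference was 2.15 (3 against 1). All these intervals, ranks and alternative fits reuse the embryos and the contrast on which Gfra1 was chosen. They describe the size of the difference and are no test of it.

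Bulk RNA of this kind cannot tell a change in the number of cells that express a gene from a change in the RNA per cell. The SPN markers summed to a normalized count of 108751 to 132815 in Control, 123166 to 130209 in Islet1Cre and 104906 to 132553 in Dlx5/6::Cre embryos, ranges that overlap. Single markers of that list differed in direction. Meis2 was higher in every mutant embryo than in any control (log2 fold change 0.43 and 0.41, adjusted p = 0.150 and 0.105 by edgeR). Foxp1 was lower in every mutant embryo (-0.33 and -0.53, adjusted p = 0.303 and 0.0305 by edgeR), and Tac1 lower in every Dlx5/6::Cre embryo (-1.12, adjusted p = 0.0776 by edgeR). The cortical and microglial sums given above did not overlap between Dlx5/6::Cre embryos and Control, whereas in Islet1Cre embryos, at 1019 to 1954 and 2211 to 2744, they did. GABAergic interneuron markers summed to 10536 to 11539 in Control, 10005 to 11596 in Islet1Cre and 6599 to 10414 in Dlx5/6::Cre embryos. The Dlx5/6::Cre range thus lay below Control, although of the 6 markers tested 3 were positive and 3 negative there (median log2 fold change -0.01). Cholinergic interneuron markers summed to 1248 to 1886, 1666 to 1764 and 1045 to 1774 in the same order. Control 1 had the lowest Gfra1 and Gfra2 of all libraries and the highest sum of erythroid markers, 17071 against 8071 to 12063 elsewhere. The part of any of these differences in the levels of the members was not tested.

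**Figure D1:**
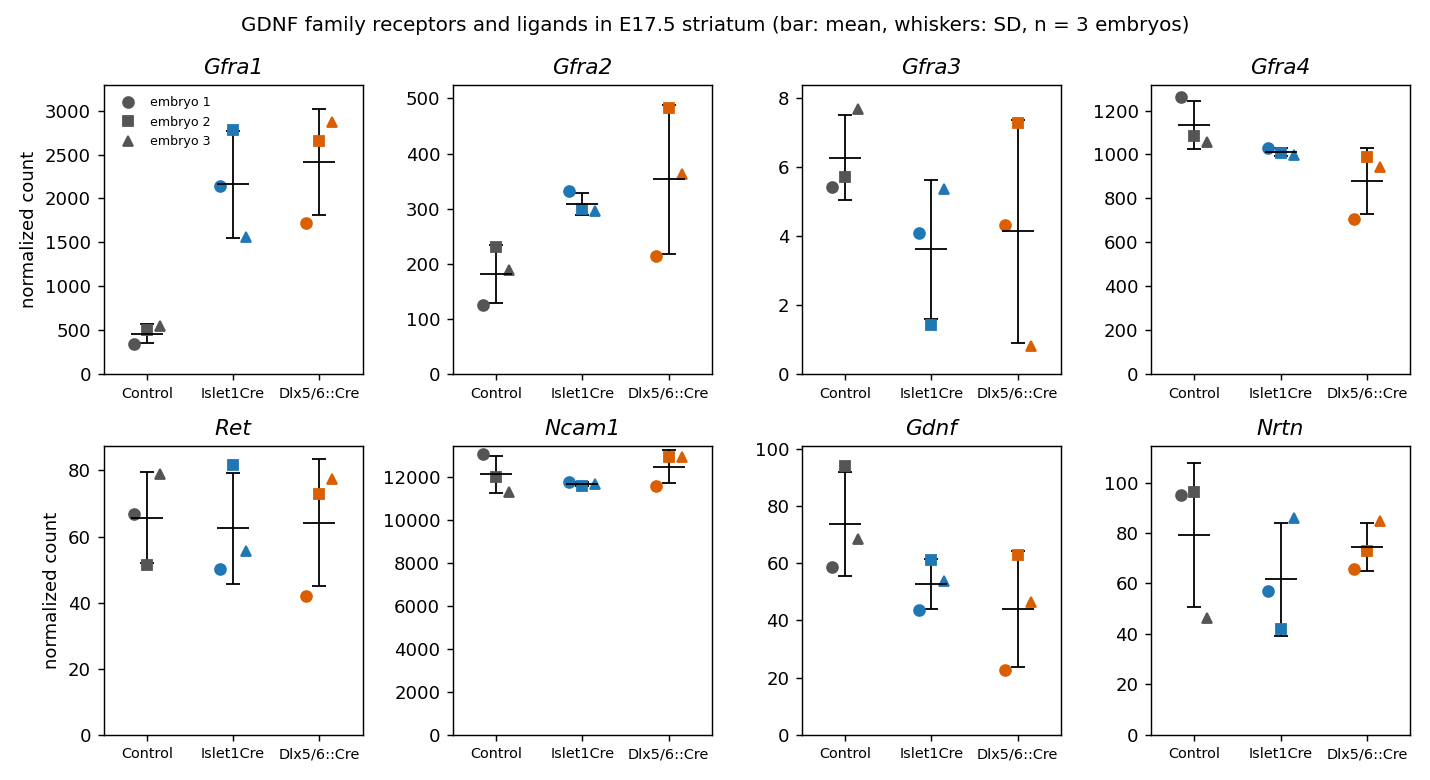
Normalized counts of the 8 members by genotype, with 1 symbol per embryo (circle 1, square 2, triangle 3), a bar at the mean and whiskers for the SD (n = 3). Each vertical axis starts at 0. Gfra1 lies between 1559 and 2866 in the 6 mutant embryos and between 337 and 544 in Control, whereas Ret and Ncam1 overlap between all genotypes.

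Gfra2, the neurturin co-receptor (ENSMUSG00000022103, protein-coding, chr14:70890120-70979838, plus strand), pointed the same way with a smaller difference. Its normalized count was 125, 230 and 189 in Control, 332, 299 and 295 in Islet1Cre, and 214, 483 and 364 in Dlx5/6::Cre embryos. All Islet1Cre embryos exceeded all controls, which 7.83% of all genes did, while Dlx5/6::Cre 1 fell inside the control range. The log2 fold change was 0.76 ± 0.29 (SE) in Islet1Cre embryos (95% interval 0.13 to 1.40, adjusted p = 0.441 by edgeR) and 0.96 ± 0.28 in Dlx5/6::Cre embryos (95% interval 0.33 to 1.59, adjusted p = 0.127 by edgeR), so neither passed the threshold of 0.05. The second of these did pass when DESeq2 was used (adjusted p = 0.0147), when genes of low count were kept in edgeR (adjusted p = 0.0265) and when Dlx5/6::Cre 1 was left out (log2 fold change 1.22, adjusted p = 0.0107 by edgeR).

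Gfra4, the persephin co-receptor (ENSMUSG00000027316, protein-coding, chr2:131039632-131043088, minus strand), lay on the other side of Control. Its normalized count was 1261, 1085 and 1055 in Control, 1030, 1005 and 997 in Islet1Cre, and 706, 989 and 941 in Dlx5/6::Cre embryos. Every mutant embryo lay below every control, by a narrow margin in Islet1Cre, as was the case for 7.28% of all genes in the Islet1Cre comparison and 11.3% in the Dlx5/6::Cre comparison. The log2 fold change of -0.17 ± 0.13 (SE) in Islet1Cre embryos had an adjusted p of 0.934 by edgeR. In Dlx5/6::Cre embryos it was -0.37 ± 0.13 (adjusted p = 0.186 by edgeR, 95% interval -0.64 to -0.09), and -0.23 when Dlx5/6::Cre 1 was left out.

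Gfra3, the artemin co-receptor (ENSMUSG00000024366, on chromosome 18), had 1 to 8 reads per library and did not pass the filter on low counts. Its reads numbered 6, 7 and 8 in Control, 3, 2 and 3 in Islet1Cre, and 4, 8 and 1 in Dlx5/6::Cre embryos. All Islet1Cre embryos lay below all controls, also in normalized count, as in 7.28% of the genes tested. With genes of low count kept, edgeR called Gfra3 in neither comparison with Control.

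The signalling receptors did not separate the genotypes. Ret, the receptor tyrosine kinase of the family (ENSMUSG00000030110, protein-coding, chr6:118151745-118197718, minus strand), had a normalized count of 67, 51 and 79 in Control, 50, 82 and 55 in Islet1Cre, and 42, 73 and 77 in Dlx5/6::Cre embryos. Its log2 fold change was -0.05 (95% interval -0.72 to 0.61) in Islet1Cre and -0.03 (95% interval -0.68 to 0.62) in Dlx5/6::Cre embryos, with adjusted p values of 0.999 and 0.976 by edgeR. Both intervals are wide, and the genotypes overlapped.

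Ncam1, the adhesion molecule that can replace Ret (ENSMUSG00000039542, protein-coding, chr9:49502136-49798925, minus strand), was measured far more closely. Its normalized count was 13050, 12012 and 11315 in Control, 11771, 11593 and 11682 in Islet1Cre, and 11601, 12923 and 12944 in Dlx5/6::Cre embryos. The log2 fold changes were -0.06 (95% interval -0.23 to 0.12) and 0.04 (95% interval -0.13 to 0.22), with adjusted p values of 0.999 and 0.845 by edgeR. Both intervals are narrow, and the genotypes overlapped.

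Neither ligand passed the threshold. Gdnf (ENSMUSG00000022144, protein-coding, chr15:7810846-7837575, plus strand) had a normalized count of 59, 94 and 68 in Control, 43, 61 and 54 in Islet1Cre, and 23, 63 and 46 in Dlx5/6::Cre embryos, and the genotypes overlapped. By edgeR it stood at -0.48 on the log2 scale in Islet1Cre embryos (adjusted p = 0.923, 95% interval -1.23 to 0.28) and at -0.74 in Dlx5/6::Cre embryos (adjusted p = 0.332, 95% interval -1.49 to 0.02). Without Control 2 the first value was -0.26, and without Dlx5/6::Cre 1, whose Gdnf was the lowest of all libraries, the second was -0.44.

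Nrtn, which encodes neurturin (ENSMUSG00000039481, protein-coding, chr17:56751325-56757530, minus strand), had a normalized count of 95, 96 and 46 in Control, 57, 42 and 86 in Islet1Cre, and 66, 73 and 85 in Dlx5/6::Cre embryos. Its values within Control spanned most of the range over all 9 embryos, and the genotypes overlapped. By edgeR its log2 fold change was -0.40 in Islet1Cre embryos (adjusted p = 0.968, 95% interval -1.14 to 0.34) and -0.09 in Dlx5/6::Cre embryos (adjusted p = 0.927, 95% interval -0.81 to 0.63). The first of these ran from -0.70 without Islet1Cre 3 to -0.16 without Islet1Cre 2.

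Beside Gfra1, then, 0 of the 6 other members tested were called in Islet1Cre;Ebf1fl/- embryos by edgeR at an adjusted p below 0.05, where 0.971% of all genes tested were called. At an unadjusted p below 0.05, 1 of the 6 (Gfra2) was counted, against 7.93% of all genes, and DESeq2 called 0, against 2.38% of the genes it tested. In Dlx5/6::Cre;Ebf1fl/- embryos edgeR likewise called 0 of these 6, where 2.39% of all genes were called. There 2 of the 6 (Gfra2 and Gfra4) had an unadjusted p below 0.05, against 15.5% of all genes, and DESeq2 called 1, Gfra2, against 5.58% of the genes it tested.

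**Figure D2:**
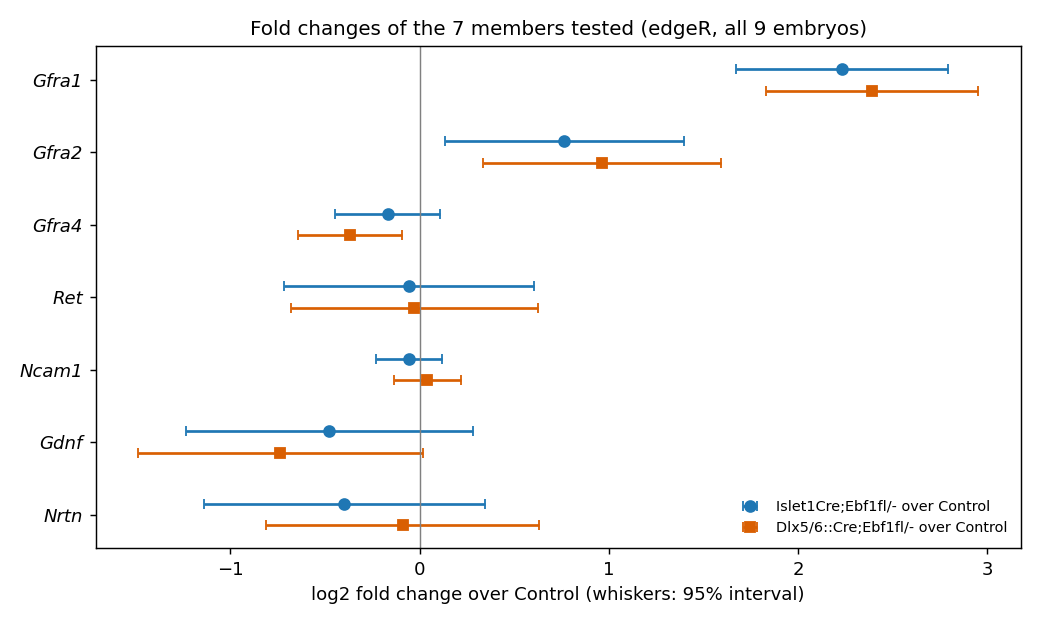
Log2 fold changes over Control of the 7 members tested, with 95% intervals, for Islet1Cre;Ebf1fl/- (circles) and Dlx5/6::Cre;Ebf1fl/- (squares) embryos. Both Gfra1 values, 2.23 and 2.39, stand apart from the other members, whose values run from -0.74 (Gdnf) to 0.96 (Gfra2).

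The mutants were also compared with each other. This contrast did not itself enter the choice of Gfra1, but the values of the same 6 mutant embryos did. Its values for Gfra1 are therefore a description, since a choice on both mutants being high bears on the difference between them. In Dlx5/6::Cre;Ebf1fl/- over Islet1Cre;Ebf1fl/- embryos Gfra1 had a log2 fold change of 0.16 (95% interval -0.37 to 0.68). The 6 mutant embryos overlapped, with Islet1Cre 3 the lowest and Dlx5/6::Cre 3 the highest. A difference between the mutants of up to 0.68 on the log2 scale lies within that interval. The sign was not stable: it turned to -0.02 without Islet1Cre 3, to -0.03 without both libraries that held Xist and Y-linked counts and to -0.21 with the embryo code as a covariate. Code and genotype cannot be told apart between the mutants, all Islet1Cre embryos being IE and all Dlx5/6::Cre embryos D. Values with the code as a covariate therefore rest on Control 3 against Control 1 and Control 2 for the effect of the code. Of the 6 other members tested, edgeR called 0 between the mutants, 0 had an unadjusted p below 0.05 and DESeq2 called 0. The corresponding shares of all genes were 0% by edgeR at the adjusted threshold, 5.16% unadjusted and 0.109% by DESeq2. The largest differences among the other members were 0.31 for Nrtn (95% interval -0.44 to 1.05), -0.26 for Gdnf (95% interval -1.03 to 0.51), -0.20 for Gfra4 (95% interval -0.48 to 0.08) and 0.20 for Gfra2 (95% interval -0.42 to 0.82). Nrtn ran from 0.07 without Islet1Cre 2 to 0.61 without Islet1Cre 3, and was 1.36 with the embryo code as a covariate (adjusted p = 1.000 by edgeR). Of the members, Gfra4 alone did not overlap between the mutants, all Dlx5/6::Cre embryos lying below all Islet1Cre embryos, as in 5.39% of all genes.

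To compare the members with each other, counts were divided by the summed length of each gene's exons and by the TMM-scaled library size to give RPKM, a level per length of transcript. In Control the order was Ncam1 at 46.4 ± 3.43 RPKM (SD, n = 3), Gfra4 at 17.4 ± 1.74, Gfra1 at 2.79 ± 0.65, Nrtn at 2.57 ± 0.93, Gfra2 at 1.70 ± 0.49, Gdnf at 0.665 ± 0.16, Ret at 0.323 ± 0.068 and Gfra3 at 0.104 ± 0.020. Gfra1 and Nrtn overlapped between control embryos, as did Nrtn and Gfra2, and all other neighbours in this order were separated in level. The adhesion receptor thus exceeded the kinase Ret by far in RNA per length, and persephin's co-receptor was the leading member of its family. Ranks were the same with the length of the longest transcript.

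In the mutants Gfra1 reached 13.1 ± 3.68 RPKM (Islet1Cre) and 14.6 ± 3.64 RPKM (Dlx5/6::Cre), close to Gfra4 at 15.5 ± 0.22 and 13.5 ± 2.30 RPKM. The RPKM of Gfra1 exceeded that of Gfra4 in Islet1Cre 2, Dlx5/6::Cre 2 and Dlx5/6::Cre 3, and in no control. Gfra1 made up 9.03%, 13.8% and 15.4% of the summed RPKM of the 4 co-receptors in Control 1 to 3. The share was 40.6%, 48.1% and 34.2% in Islet1Cre 1 to 3, and 44.8%, 44.8% and 49.3% in Dlx5/6::Cre 1 to 3.

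The share of Gfra4 was 79.0% ± 5.54 (SD, n = 3) in Control, 49.6% ± 5.76 in Islet1Cre and 43.2% ± 2.82 in Dlx5/6::Cre embryos. Gfra2 held 7.77% ± 2.38, 9.26% ± 1.10 and 10.3% ± 2.08 in the same order, and these ranges overlapped. The summed RPKM of the co-receptors was 22.0 ± 0.67 in Control, 31.5 ± 3.69 in Islet1Cre and 31.5 ± 6.99 in Dlx5/6::Cre embryos, with Dlx5/6::Cre 1, at 23.4, only just above the highest control, at 22.7. These sums and shares contain Gfra1 and are a description. The ratio of Gfra1 to Ret RPKM was 8.91 ± 2.91 in Control, 43.1 ± 8.92 in Islet1Cre and 47.1 ± 3.04 in Dlx5/6::Cre embryos.

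**Figure D3:**
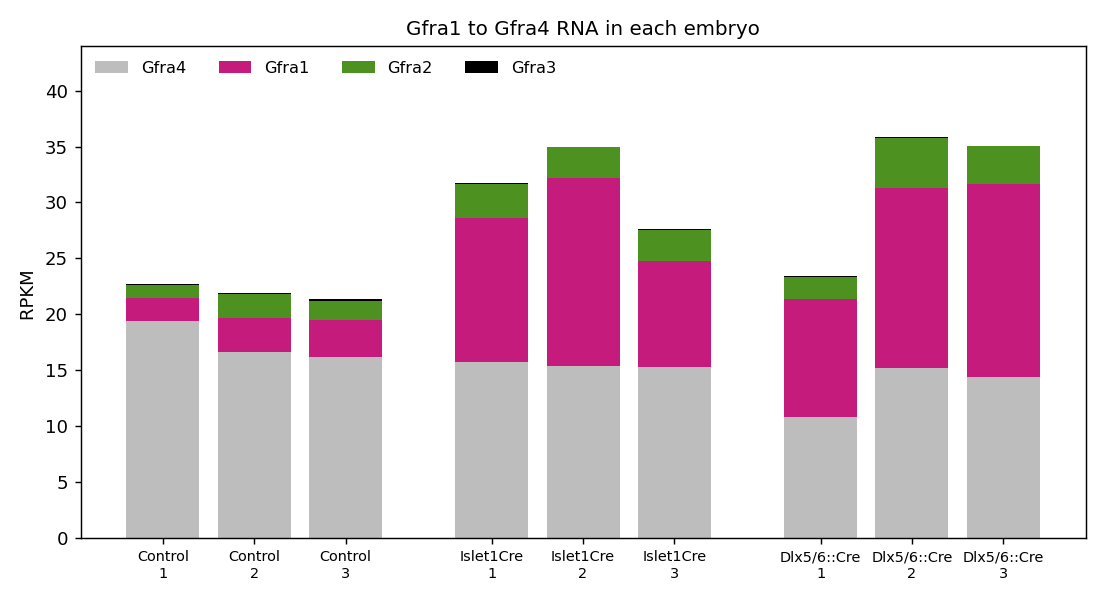
Stacked RPKM of Gfra4 (grey), Gfra1 (magenta), Gfra2 (green) and Gfra3 (black, too low to see) in each of the 9 embryos. The magenta part is 9.03% to 15.4% of the bar in Control and 34.2% to 49.3% in the mutants.

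Genes annotated on the opposite strand could raise or lower a count where counting ignored strand. The strand setting of the counting is not given in the sources used here, and the effect on the members was not tested. Gm16277 overlaps the 3′ end of Gfra1 (chr19:58204139-58236047, plus strand) and had 0 to 3 reads per library, and Gm11149 overlaps Ncam1 with 0 to 5 reads. Of the 5589 windows of 75 bases in Gfra1 transcripts, 345 (6.17%) also occurred in transcripts of another gene, 0 of them on the same strand. For Gfra2, Gfra3, Ret, Gdnf and Nrtn the share was 0%, and for Gfra4 and Ncam1 it was 0.255% and 1.98%.

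Around these members a list of 37 other genes of the pathway was examined in 4 groups: further ligands and receptors, sorting receptors and the NCAM branch, adaptors of Ret, and genes that respond to Ret. The list was drawn up with earlier results of these embryos known. Of its genes 34 were tested. Pspn (persephin), Gdf15 and its receptor Gfral were too low, with a normalized count of at most 7.16 in any embryo. In Islet1Cre;Ebf1fl/- embryos edgeR called 0 of the 34, against 0.971% of all genes, 2 of them (Grb7 and Sorl1) had an unadjusted p below 0.05, against 7.93%, and DESeq2 called 0, against 2.38%. In Dlx5/6::Cre;Ebf1fl/- embryos edgeR called 2 of the 34, against 2.39% of all genes, 5 (Dok6, Etv5, Grb10, Grb7 and Sorl1) had an unadjusted p below 0.05, against 15.5%, and DESeq2 called 2, against 5.58%. Of the 2 called by edgeR, Sorl1 was higher, as were 1.05% of all genes, and Grb7 lower, as were 1.34%. Between the mutants edgeR called 0, against 0% of all genes, 1 (Grb7) had an unadjusted p below 0.05, against 5.16%, and DESeq2 called 0, against 0.109%. The median log2 fold change of the list was 0.03 in Islet1Cre and 0.09 in Dlx5/6::Cre embryos, beside -0.0016 and 0.01 over all genes tested.

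Among further ligands and receptors 0 of 5 passed in either comparison with Control by edgeR. Islr2, which encodes a membrane protein that binds Ret and the neurotrophin receptor TrkA, and Sdc3, which encodes the GDNF-binding proteoglycan syndecan-3, had the highest RPKM of this group in Control, 279 ± 19.7 and 95.7 ± 5.51. Their log2 fold changes were 0.07 and 0.08 in Islet1Cre and 0.20 and 0.07 in Dlx5/6::Cre embryos (adjusted p of 0.363 or above by edgeR). Artn, which encodes artemin, had a normalized count of only 6 to 41. The normalized count of Gas1, a GPI-anchored protein related to the co-receptors, was 896 in Dlx5/6::Cre 1, the library rich in cortical and radial glial markers, and 186 to 281 in the other 8 libraries.

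Sorl1 was the only gene called among the 7 sorting receptors and NCAM partners. It encodes SorLA, which carries GFRα1 and bound GDNF into the cell. Its normalized count was 1608, 1454 and 1579 in Control, 1930, 2630 and 1851 in Islet1Cre, and 3023, 2072 and 2848 in Dlx5/6::Cre embryos. Every mutant embryo lay above every control, as in 7.83% (Islet1Cre) and 9.63% (Dlx5/6::Cre) of all genes. The log2 fold change was 0.47 ± 0.16 (SE) in Islet1Cre (adjusted p = 0.327 by edgeR) and 0.77 ± 0.16 in Dlx5/6::Cre embryos (adjusted p = 0.0298 by edgeR). Without Islet1Cre 2, the highest of its genotype, the first value was 0.29. The Dlx5/6::Cre call was lost, with adjusted p values of 0.102, 0.101, 0.101 and 0.104 by edgeR, without Control 1, Control 2, Control 3 or Dlx5/6::Cre 3 in turn, and the fold change then ran from 0.71 to 0.81. It was also lost without both libraries that held Xist and Y-linked counts (0.79, adjusted p = 0.139 by edgeR) and with the embryo code as a covariate (0.75, adjusted p = 0.413 by edgeR). The call was kept with DESeq2 (adjusted p = 0.000204) and when genes of low count were kept in edgeR (adjusted p = 0.000815).

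Fyn, a kinase that signals downstream of NCAM, and St8sia2, a polysialyltransferase that acts on NCAM, had the highest RPKM of this group in Control, 71.7 ± 4.88 and 43.7 ± 4.01. Their log2 fold changes lay between -0.08 and 0.10 in both comparisons (adjusted p of 0.660 or above by edgeR). The related adhesion gene Ncam2 and the polysialyltransferase St8sia4 did not pass either, at 0.17 and 0.07 in Islet1Cre and 0.25 and 0.11 in Dlx5/6::Cre embryos.

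Of the 16 adaptors of Ret, Grb7 alone passed. Grb7 encodes an SH2 adaptor that binds phosphorylated Ret, and its normalized count was 91, 75 and 110.0 in Control, 60, 40 and 66 in Islet1Cre, and 31, 26 and 39 in Dlx5/6::Cre embryos. The genotypes did not overlap, with Islet1Cre embryos in between. By comparison, 11.3% of all genes had all Dlx5/6::Cre embryos below all controls, and 7.28% all Islet1Cre embryos. Its log2 fold change was -0.75 ± 0.27 (SE) in Islet1Cre (adjusted p = 0.376 by edgeR) and -1.50 ± 0.27 in Dlx5/6::Cre embryos (adjusted p = 0.0184 by edgeR). Between the mutants it was -0.75 ± 0.28 (adjusted p = 0.868 by edgeR). The Dlx5/6::Cre call was lost without Control 1 (-1.51, adjusted p = 0.0648), Control 3 (-1.36, adjusted p = 0.0733) or Dlx5/6::Cre 2 (-1.38, adjusted p = 0.0698), all by edgeR. It was also lost without both libraries that held Xist and Y-linked counts (-1.36, adjusted p = 0.113) and with the embryo code as a covariate (-1.76, adjusted p = 0.106), again by edgeR. The call was kept with DESeq2 (adjusted p = 0.000127) and when genes of low count were kept in edgeR (adjusted p = 0.00334).

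Grb2 and Dok4, adaptors with the highest RPKM of that group in Control at 59.7 ± 3.75 and 49.2 ± 3.97, had log2 fold changes of -0.04 and -0.10 in Islet1Cre and 0.05 and -0.19 in Dlx5/6::Cre embryos (adjusted p of 0.373 or above by edgeR). Grb10 resembled Gas1 in one respect: its normalized count was 2963 in Dlx5/6::Cre 1 and 1155 to 1614 elsewhere. The part of that library's composition in either value was not tested.

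Genes that respond to Ret signalling gave 0 calls of 6 by edgeR in either comparison with Control. Spry2, a feedback inhibitor of receptor tyrosine kinases, and Dusp6, a phosphatase of ERK, led this group in Control with 6.36 ± 0.27 and 5.87 ± 1.58 RPKM. The log2 fold changes of Spry2 were -0.15 and 0.29 and those of Dusp6 were -0.14 and -0.27 in Islet1Cre and Dlx5/6::Cre embryos (adjusted p of 0.484 or above by edgeR). The normalized count of Spry2 in Dlx5/6::Cre 1 was 693, against 328 to 418 in the other 8 libraries, and that of Etv5 816, against 367 to 595. Over the 6 genes, this library included, the median log2 fold change was -0.13 in Islet1Cre and 0.05 in Dlx5/6::Cre embryos.

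**Figure D4:**
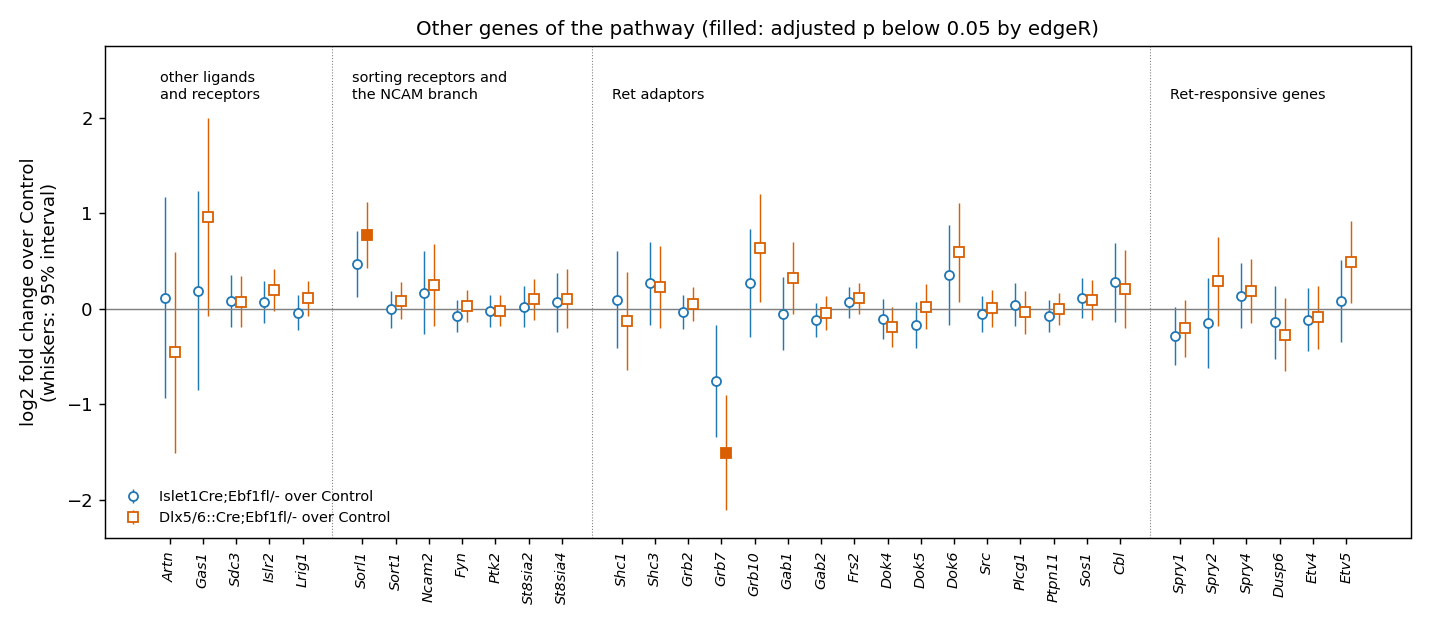
Log2 fold changes over Control, with 95% intervals, of the 34 pathway genes tested, by group, in Islet1Cre;Ebf1fl/- (circles) and Dlx5/6::Cre;Ebf1fl/- (squares) embryos. Filled symbols mark an adjusted p below 0.05 by edgeR, which Sorl1 (0.77) and Grb7 (-1.50) reach in Dlx5/6::Cre embryos.

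Genes with a pattern like that of Gfra1 were sought by the root mean square difference, over the 9 embryos, of log2 CPM (counts scaled to library size) centred on the Control mean. Of 12050 candidates with a mean normalized count of at least 100, the nearest were Adcy8 (0.21), Sorcs3 (0.41), Stk32a (0.43), Avpr1a (0.49) and Sdk1 (0.53). That mean was taken over all 9 embryos. Adcy8, Stk32a and Avpr1a, with Control means of 42.9, 56.6 and 34.6, reached 100 only through their values in the mutants. Since the 5 genes were picked for a profile that is high in both mutants, their values are a description.

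Adcy8, which encodes a calcium-stimulated adenylyl cyclase (chr15:64697084-64922296, minus strand), had a normalized count of 36, 53 and 39 in Control, 242, 233 and 127 in Islet1Cre, and 182, 227 and 288 in Dlx5/6::Cre embryos. As with Gfra1, Islet1Cre 3 was the lowest mutant and Dlx5/6::Cre 3 the highest. Sorcs3, a sorting receptor of the same domain family as Sorl1 and on the same chromosome as Gfra1 (chr19:48206025-48805505, plus strand), had a normalized count of 268, 530.0 and 434 in Control, 1596, 1627 and 1260.0 in Islet1Cre, and 1097, 1488 and 1688 in Dlx5/6::Cre embryos.

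Log2 differences over Control were 2.23 and 2.43 for Adcy8, and 1.86 and 1.79 for Sorcs3, in Islet1Cre and Dlx5/6::Cre embryos. They were 1.77 and 2.00 for the kinase gene Stk32a, 2.47 and 2.32 for the vasopressin receptor gene Avpr1a, and 1.67 and 1.84 for the adhesion gene Sdk1. Of the 5, Avpr1a spread most in Control on the log2 scale, from 18 to 54 in normalized count. When likeness was measured by Pearson's r, which disregards the size of the difference, only Adcy8 of these 5 stayed among the first 5. By r Sorcs3 came 7th, Stk32a 18th, Sdk1 22nd and Avpr1a 98th.

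**Figure D5:**
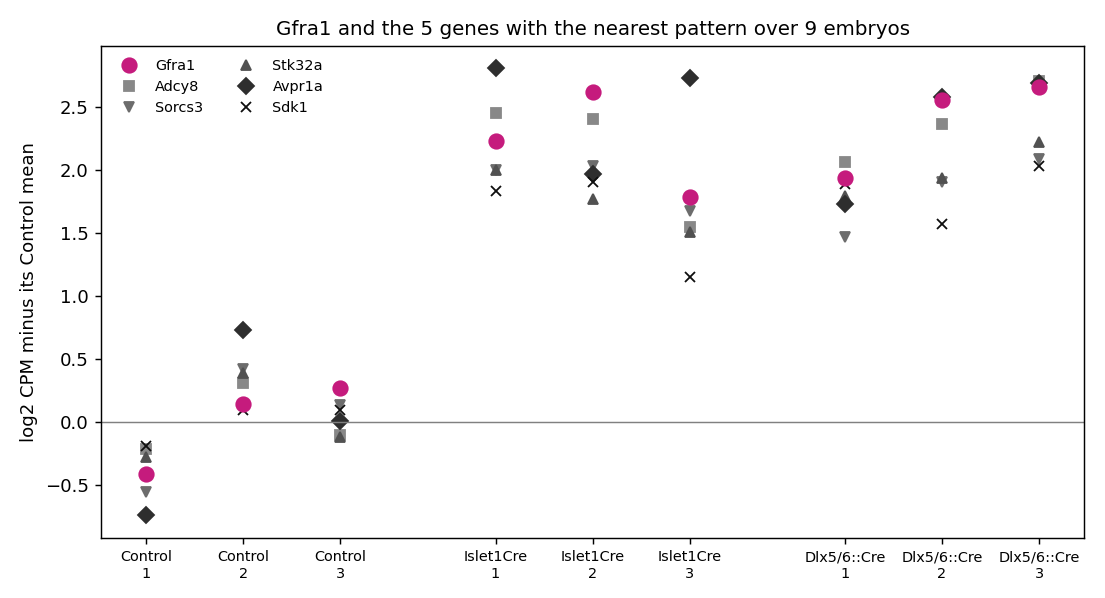
Log2 CPM minus the Control mean in each of the 9 embryos for Gfra1 (magenta) and the 5 genes nearest to it. In mutant embryos Gfra1 lies between 1.79 and 2.66, and in Control between -0.41 and 0.27.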

How the data were processed

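The authors deposited raw counts of reads per Ensembl gene for each of the 9 embryos. They trimmed and filtered 75-base reads from a stranded polyA library, mapped them with STAR 2.4.0k, removed alignments at more than 1 position and counted on Ensembl 81 genes with HTSeq-count 0.5.3. Removal of reads with several positions lowers counts of near-identical genes.

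From these counts edgeR 4.0.16 in R 4.3.3 was fitted to all 9 libraries (TMM, filterByExpr with a minimum count of 10, quasi-likelihood test, Benjamini-Hochberg over 16368 genes, threshold 0.05). Standard errors were taken as log2 fold change over the square root of F, in absolute value. Normalized counts use size factors of DESeq2 1.42.0. Positions are 1-based on GRCm38 (GENCODE M21). The edgeR step was also run on simulated counts with known changes. These were drawn without differences in embryo code, sex or tissue make-up, so that run does not bear on such differences. Replicates are separate embryos by their labels, 3 per genotype.

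Members, lists and tests were chosen with earlier results of these data known. Named were all members, pathway genes past the threshold in a comparison with Control, the 2 of highest Control RPKM in each pathway group, and the 5 genes nearest to Gfra1. Gas1, Grb10, Artn, Ncam2, St8sia4, Dok6, Etv5, Meis2, Foxp1 and Tac1 were added after their values were seen. Alternatives were DESeq2's test and size factors, other filters, only the 6 embryos compared, the embryo code as a covariate, a replicate block and each embryo left out. Leaving out both libraries with Xist and Y-linked counts, and keeping only 1 embryo code, were chosen after seeing the data.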

Additional observations from a re-analysis of the deposited data

How the results depend on the processing

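Replicate numbers showed no common pairing over all genotypes. Deviations from the genotype means correlated at -0.02 on average between embryos of the same number (range -0.23 to 0.18) and at 0.01 between those of different numbers. Pairs of the same number were positive between Control and Dlx5/6::Cre (0.18, 0.08 and 0.17) and negative between Control and Islet1Cre (-0.09, -0.23 and -0.11). They were also negative between the mutants (-0.04, -0.10 and -0.07), and the pooled average cannot exclude a pairing. With a replicate block Gfra1 stood 2.25 and 2.39 above Control, and the pathway genes called in Dlx5/6::Cre embryos went from 2 to 1, Grb7 (adjusted p = 0.0118 by edgeR), Sorl1 having an adjusted p of 0.0560. The genes called in Islet1Cre, in Dlx5/6::Cre and between the mutants, 159, 392 and 0 in all, became 395, 873 and 17 with DESeq2, 311, 708 and 13 without a filter, 259, 181 and 2 with only the 6 embryos compared, 61, 32 and 1 with the embryo code as a covariate, and 52, 138 and 3 without both libraries that held Xist and Y-linked counts. Within code D, where Control 3 is the only control, 2 genes were called for Dlx5/6::Cre. Leaving out 1 embryo gave 15 to 397, 143 to 613 and 0 to 4. Members called beside Gfra1 in Dlx5/6::Cre embryos became 1, Gfra2, with DESeq2 and without a filter (leaving out 1 embryo, 0 to 1). Pathway genes called there became 0 with the code as a covariate, without the 2 libraries with Xist and Y-linked counts and within code D (leaving out 1 embryo, 0 to 2). The cause of these moves was not tested.

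Among the log2 fold changes, signs turned only for results far from the threshold. Ret over Control became 0.094 (code as a covariate), 0.18 (without the 2 libraries) and 0.11 (within code IE) in Islet1Cre, with -0.32 to 0.10 on leaving out 1 embryo, and 0.12 without the 2 libraries in Dlx5/6::Cre, with -0.19 to 0.19. Nrtn in Dlx5/6::Cre became 0.69 with the code as a covariate and 0.69 within code D (-0.36 to 0.075 on leaving out 1 embryo). Ncam1 became -0.0080 in Dlx5/6::Cre without the 2 libraries (-0.0073 to 0.10 on leaving out 1 embryo), and in Islet1Cre ran from -0.10 to 0.0013. Between the mutants Gfra1 became -0.21 (code as a covariate) and -0.032 (without the 2 libraries), with -0.023 to 0.39 on leaving out 1 embryo, and Ret -0.39 and -0.056, with -0.14 to 0.29. Gdnf ran from -0.60 to 0.035 and Gfra2 from -0.093 to 0.45. Depth limits Ret, Gdnf, Nrtn and Gfra3 most, at 1 to 118 reads per library.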
